A study of Mus musculus with 12 samples.

Results

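The comparison set the 3 pancreas tumours labelled aSMA depleted against the 3 labelled FAP depleted, 6 of the 12 tumours of the series, across 30142 genes. The tumours were chosen by their labels alone. All 12 came from mice labelled PKT, letters that in the field stand for a genetic model of pancreatic cancer. Each group held 3 mice: FAP-TK control tumours marked as without depletion, FAP depleted tumours, aSMA-TK control tumours marked as without depletion, and tumours labelled aSMA depleted. TK is a thymidine kinase that makes the cells carrying it sensitive to ganciclovir, which the labels give at 50 ug per kg for all 12 mice, controls included, so whether the controls received it is unclear. Which promoters drive the transgenes, and the age of the mice, is not given in the sources used here. Cells aimed at, mouse line and array background all differ between the depleted groups and cannot be told apart. The control groups differ in line and array background too, without depletion by their labels, so the control difference (aSMA-TK control minus FAP-TK control) is given beside the genes whose differences are described. All differences are in log2 units of array intensity, as aSMA depleted minus FAP depleted, so that a value above 0 is higher in the tumours labelled aSMA depleted.

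Pancreatic tumours of this kind are rich in stroma, in which activated fibroblasts deposit collagen around the tumour cells. Fibroblast activation protein, the product of Fap, is a cell-surface protease carried by a large share of these fibroblasts. Alpha smooth muscle actin (aSMA), the product of Acta2, is the contractile actin of myofibroblasts, pericytes and vascular smooth muscle. The populations overlap, since many activated fibroblasts carry both proteins. Acta2 is also the gene whose product defines the cells aimed at in the aSMA line, and its promoter is known for paired CArG elements, bound by serum response factor. The stretch from 250 bases before to 50 bases after the annotated start of Acta2 is printed for that reason, from RefSeq (GRCm38.p6, chr19:34255324-34255623, minus strand, 5′ to 3′). The capitals mark its 2 CArG-like words, here 2 C, then 6 bases of which at least 5 are A or T, then 2 G.
Acta2 promoter: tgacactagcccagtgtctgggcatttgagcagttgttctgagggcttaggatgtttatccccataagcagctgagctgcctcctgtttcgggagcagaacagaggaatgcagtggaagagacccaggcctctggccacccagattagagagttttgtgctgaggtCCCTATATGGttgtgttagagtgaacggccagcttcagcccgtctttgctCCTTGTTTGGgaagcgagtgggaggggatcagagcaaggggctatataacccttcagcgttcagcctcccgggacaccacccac
The first word, CCCTATATGG, starts 84 bases before the annotated start, and the second, CCTTGTTTGG, starts 34 bases before it. Of 32817 mouse promoters of this length, 3277 (9.99%) held such a word and 270 (0.823%) held 2 or more; the form reads the same on both strands. The exact first word was found, on either strand, in 9 (0.0274%) and the second in 26 (0.0792%). The match is a description of these letters only.

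A value was taken as above background where the deposited intensity exceeded the 95th percentile of the negative-control probe sets of the same array. By the mean over the 12 arrays, 3423 genes were above background. The limit lay between 9.29 and 11.19 on the FAP depleted arrays and between 8.21 and 8.79 on the arrays labelled aSMA depleted. The same deposited value could therefore be above background on the latter and not on the former, so a count of arrays above background partly reflects the array. The negative-control median lay between 5.46 and 6.40 on the FAP depleted arrays and between 4.50 and 4.88 on the arrays labelled aSMA depleted. FAP depleted replicate 2 stood apart, with a gap of 2.69 between the medians of its positive and negative control probe sets against 4.32 to 4.89 on the other 5 arrays of the comparison. Its correlations with the 3 arrays labelled aSMA depleted, 0.939 to 0.961 across genes, were lower than those of the other FAP depleted arrays with the same 3 (0.9695 to 0.982). Among the control arrays, the gap was likewise low on FAP-TK control replicates 1 and 3 (2.97 and 2.99), against 4.44 on replicate 2. Every control difference given here rests on these arrays. With FAP depleted replicate 2, FAP-TK control replicates 1 and 3 are the 3 arrays of lowest separation left out below. aSMA depleted replicate 1 stood apart in its acinar genes and held the highest T cell, B and plasma cell and MHC class II list means, described below. Xist and Eif2s3y marked FAP depleted replicate 1 as female and replicates 2 and 3 as male, and aSMA depleted replicate 1 as male and replicates 2 and 3 as female, so sex was uneven between the groups (control differences -0.42 for Xist and -0.91 for Eif2s3y).

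Neither depletion target differed between the groups by the limma test. Fap measured 5.52, 5.34 and 6.21 in the FAP depleted tumours against 6.15, 6.01 and 7.25 in those labelled aSMA depleted. The groups overlapped, and none of the 12 values was above background. The difference was 0.78 ± 0.37 (SE; limma adjusted p = 0.230; exact permutation p = 0.3, two-sided, n = 3 and 3), and 3 arrays against 3 cannot give an exact p under 0.1. Between the control groups Fap differed by -0.67, with no overlap (exact permutation p = 0.1). Acta2 measured 11.87, 7.84 and 11.51 in the FAP depleted tumours against 10.13, 13.86 and 15.28 in the tumours labelled aSMA depleted. The lowest value was that of FAP depleted replicate 2, and the groups overlapped. The difference was 2.68 ± 1.71 (limma adjusted p = 0.360; exact permutation p = 0.3), and the control difference was -0.68 (exact permutation p = 0.7). Without FAP depleted replicate 2 the Acta2 difference was 1.40, without aSMA depleted replicate 1 it was 4.17, and without aSMA depleted replicate 3 it was 1.59. Without aSMA depleted replicate 3 the Fap difference was 0.39. Acta2 was thus not measured lower in the tumours labelled for its depletion, so that group is called by its label throughout. In whole tumours fewer cells of a type and less RNA per cell cannot be told apart.

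**Figure D1:**
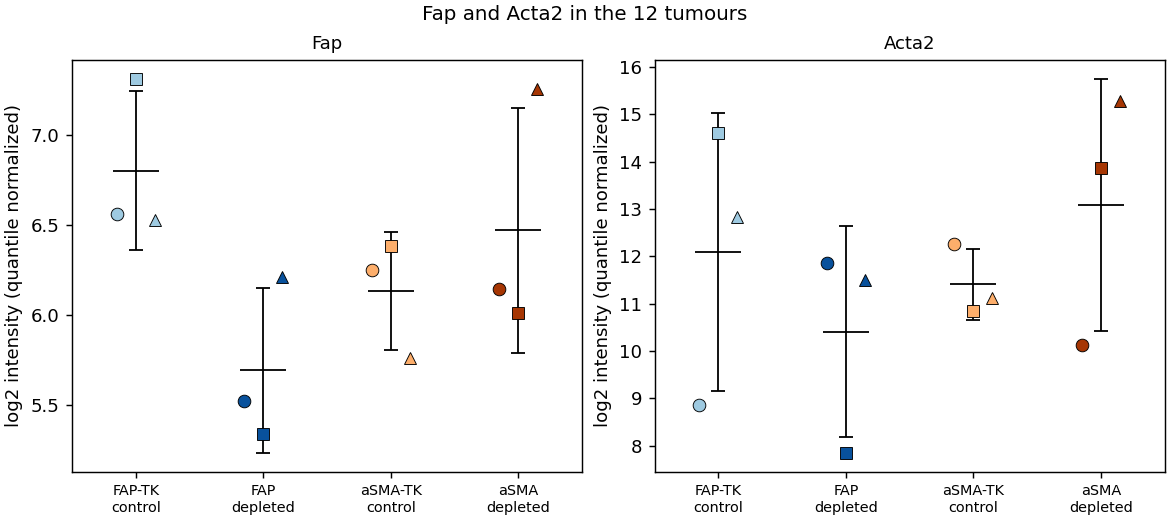
Quantile-normalized log2 intensity of Fap (left) and Acta2 (right) on each array, by group; circles, squares and triangles are replicates 1, 2 and 3, and the bar with whiskers is the mean ± SD of 3 tumours. The Acta2 values of the tumours labelled aSMA depleted reach 15.28 and overlap those of the FAP depleted tumours.

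Across all genes, 1562 of 30142 (5.18%) differed between the depleted groups at a limma adjusted p under 0.05, 826 higher (2.74%) and 736 lower (2.44%) in the tumours labelled aSMA depleted. At an unadjusted p under 0.05 stood 7414 genes (24.6%). Higher genes made up 52.9% of the 1562 calls, 64.9% of calls with median-centred arrays and 2.32% of calls on the values as deposited, where the median of all genes shifted to -0.45 from 0.04. Most calls were of genes near background: 1462 of the 26719 genes not above background on average were called (5.47%), against 100 of the 3423 above it (2.92%), of which 41 were higher (1.2%) and 59 lower (1.72%). Above background, 304 genes (8.88%) were higher and 457 (13.4%) lower at an unadjusted p under 0.05. Of the 1562 called genes, 1515 differed in the same direction between the control groups and 811 were also called there in that direction. Over all 30142 genes, 22142 had the same sign in both comparisons. The depleted and control differences rest on separate tumours but on the same lines and array backgrounds. Their calls are not separate, since both tests used the same standard error for each gene, fitted over the arrays of all groups. A gene with a small standard error was more easily called in both comparisons, so the counts of shared calls can partly reflect this. The control comparison itself called 2350 genes (7.8%), 1440 higher (4.78%) and 910 lower (3.02%), so the calls shared in the same or opposite direction, 812, were 52% of the depleted calls and 34.6% of the control calls. Tested directly as a difference of the depleted and control differences, no gene was called by limma (0 of 30142, smallest adjusted p = 0.829), while 1796 genes (5.96%) had an unadjusted p under 0.05. With the 6 depleted arrays fitted alone, limma called 1 gene, 1500011B03Rik (-2.56, adjusted p = 0.0414; controls -2.55), and an unmoderated two-sample test called 0, with 6345 genes at an unadjusted p under 0.05.

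**Figure D2:**
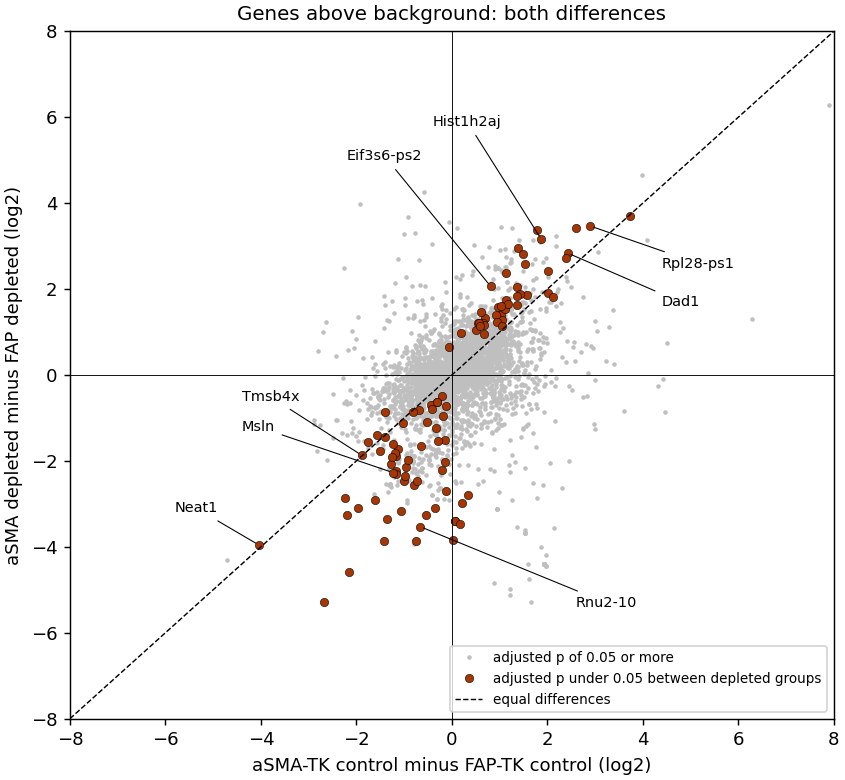
Difference between the depleted groups (y axis) against the difference between the control groups (x axis), both in log2 units, for the 3423 genes above background on average; red points are the 100 genes at an adjusted p under 0.05 between the depleted groups, and the dashed line marks equal differences. Of the red points, 93 have the same sign on both axes, and Neat1, Tmsb4x, Rpl28-ps1 and Dad1 lie near the dashed line.

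Among the named genes higher in the tumours labelled aSMA depleted were a set of ribosomal protein pseudogenes, the glycosylation subunit Dad1 and the complement regulator Cfi. Rpl28-ps1, a processed copy of a ribosomal protein gene, measured 14.97, 13.999 and 15.34 in the FAP depleted tumours against 18.27, 18.05 and 18.38 in those labelled aSMA depleted. The groups lay apart (difference 3.47 ± 0.43, limma adjusted p = 0.00658), and the control groups differed likewise (2.90, adjusted p = 0.00927). Dad1 encodes a subunit of the oligosaccharyltransferase that attaches sugar chains to new proteins. It measured 11.87, 10.46 and 11.33 against 14.28, 13.84 and 14.06. The difference of 2.84 ± 0.40 (adjusted p = 0.00936) stood beside a control difference of 2.42 (adjusted p = 0.0133). Sh3bgrl3, a small thioredoxin-fold protein, showed the same arrangement, with 11.33, 10.93 and 11.68 against 14.19, 13.86 and 14.09 and differences of 2.73 and, in controls, 2.40 (adjusted p = 0.0161 and 0.0198).

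Hist1h2aj, a gene of the core histone H2A, spread more, from 10.27 to 12.04 in the FAP depleted tumours and from 13.11 to 15.73 in those labelled aSMA depleted. Its difference was 3.16 ± 0.67 (limma adjusted p = 0.0312), with 1.87 between controls (unadjusted p = 0.0191, not called). Gstm2, a glutathione S-transferase, differed by 2.81 ± 0.68 (adjusted p = 0.0454), with 1.48 in controls, where the groups overlapped. Cfi, complement factor I, is the protease that inactivates the opsonins C3b and C4b. Its values of 8.82, 7.76 and 8.48 in the FAP depleted tumours were not above background on any of the 3 arrays, against 10.97, 10.82 and 10.36 in the other group. The measured difference was 2.36 ± 0.49 (adjusted p = 0.0293), and against the background limit it was at least 0.99. In controls it was 1.14 (adjusted p = 0.161), with overlap. Erich5 rose from 7.27, 6.67 and 7.80, also not above background, to 10.95, 10.17 and 9.94. Its measured difference was 3.11 ± 0.51 (adjusted p = 0.0146), at least 0.62 against the background limit, and the controls differed by 2.44 (adjusted p = 0.0258).

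The ribosomal protein copies named were all higher, while the translation factor copies moved in both directions. The naming left out clone and predicted names and could be met more easily by higher genes, so this is not a count of all such copies. Among all pseudogenes above background, 24 were called higher and 12 lower. Eif3s6-ps2, a copy of a subunit gene of the initiation factor eIF3, measured 13.59, 13.28 and 13.66 against 15.77, 15.74 and 15.20 (2.06 ± 0.26, limma adjusted p = 0.00658; controls 0.81, not called). Eif3s6-ps1, another copy of the same parent gene, ran the opposite way, with 10.94, 11.05 and 11.19 against 10.03, 10.00 and 9.77 (-1.13 ± 0.17, adjusted p = 0.0097; controls -1.03, adjusted p = 0.0123). Probe sequences were not examined, so these values may belong to the copies named, to the parent gene or to several copies. Rpl21-ps11 differed by 1.85 and Rplp0-ps1 by 1.82, and both were called likewise in controls (1.36 and 2.12). Rpl30-ps8 differed by 1.13, with 0.58 in controls. Of the ribosomal protein genes themselves, 10 of the 26 listed were measured, 4 of them higher and 0 called by limma (1 in each direction at an unadjusted p under 0.05), with a median of -0.01 beside 0.04 over all genes. Of genes noticed after the values were seen, Rps29 (1.61) and Rpl7a (1.23) were called higher, as were Btf3, a factor that binds nascent chains (1.04), Ssr1, of the translocon-associated complex (1.14), Hacd2, an enzyme of fatty acid elongation (1.40), Cenpx, a centromere protein (1.58, at least 0.50 against the background limit) and the mitochondrially encoded ND2 of respiratory complex I (1.62). All 7 had the same sign in controls (1.02, 0.94, 0.51, 1.05, 0.93, 0.97 and 1.36 in the order named), and Ssr1 and ND2 were called there (adjusted p = 0.0445 and 0.0255).

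Among the named genes lower in the tumours labelled aSMA depleted were Neat1, Tmsb4x, Tpm1, Hnrnpu and Srsf6. Neat1, the long non-coding RNA that scaffolds paraspeckles, measured 15.42, 16.55 and 15.46 in the FAP depleted tumours against 11.83, 12.79 and 10.94 in those labelled aSMA depleted. The difference of -3.96 ± 0.70 (limma adjusted p = 0.0186) matched that of the controls in size, -4.04 (adjusted p = 0.0147). Tmsb4x, thymosin beta 4, holds actin monomers in reserve. Its 12.42, 12.37 and 12.64 against 10.53, 10.83 and 10.45 gave -1.87 ± 0.29 (adjusted p = 0.0122), with -1.89 in controls (adjusted p = 0.0107). Tpm1, a tropomyosin that lies along actin filaments, measured 11.03, 10.83 and 10.80 against 8.73, 9.50 and 9.14. It differed by -1.76 ± 0.22 (adjusted p = 0.00658), with -1.50 in controls (adjusted p = 0.00923). Tpm3, a related tropomyosin chosen after its values were seen, differed by -1.41 (adjusted p = 0.00766), with -1.57 in controls. Hnrnpu, a nuclear RNA-binding protein, differed by -1.55 and Srsf6, a splicing factor, by -0.85, and both were called likewise in controls (-1.76 and -1.40).

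Msln and Rnu2-10 differed more between the depleted groups than between the controls in measured size, though neither passed the test of that difference. Msln encodes mesothelin, a surface protein of mesothelium and of many pancreatic carcinomas. It measured 15.41, 13.69 and 15.34 in the FAP depleted tumours against 12.33, 12.80 and 12.49 in those labelled aSMA depleted. Every FAP depleted value lay above the highest of the other group (-2.27 ± 0.48, limma adjusted p = 0.0316; controls -1.23, adjusted p = 0.133; interaction adjusted p = 0.854). The mesothelial list, Msln included, did not run lower as a whole. Of 7 measured, 4 were higher and 3 lower, with a median of 0.05 (-0.03 without FAP depleted replicate 2), and only Msln was called. Rnu2-10, a copy of the U2 spliceosomal RNA, measured 19.01, 19.07 and 18.91 against 14.11, 16.25 and 16.03. The FAP depleted values lay close together near the top of the scale (-3.53 ± 0.67, adjusted p = 0.0235; controls -0.66, adjusted p = 0.547; interaction adjusted p = 0.829).

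**Figure D3:**
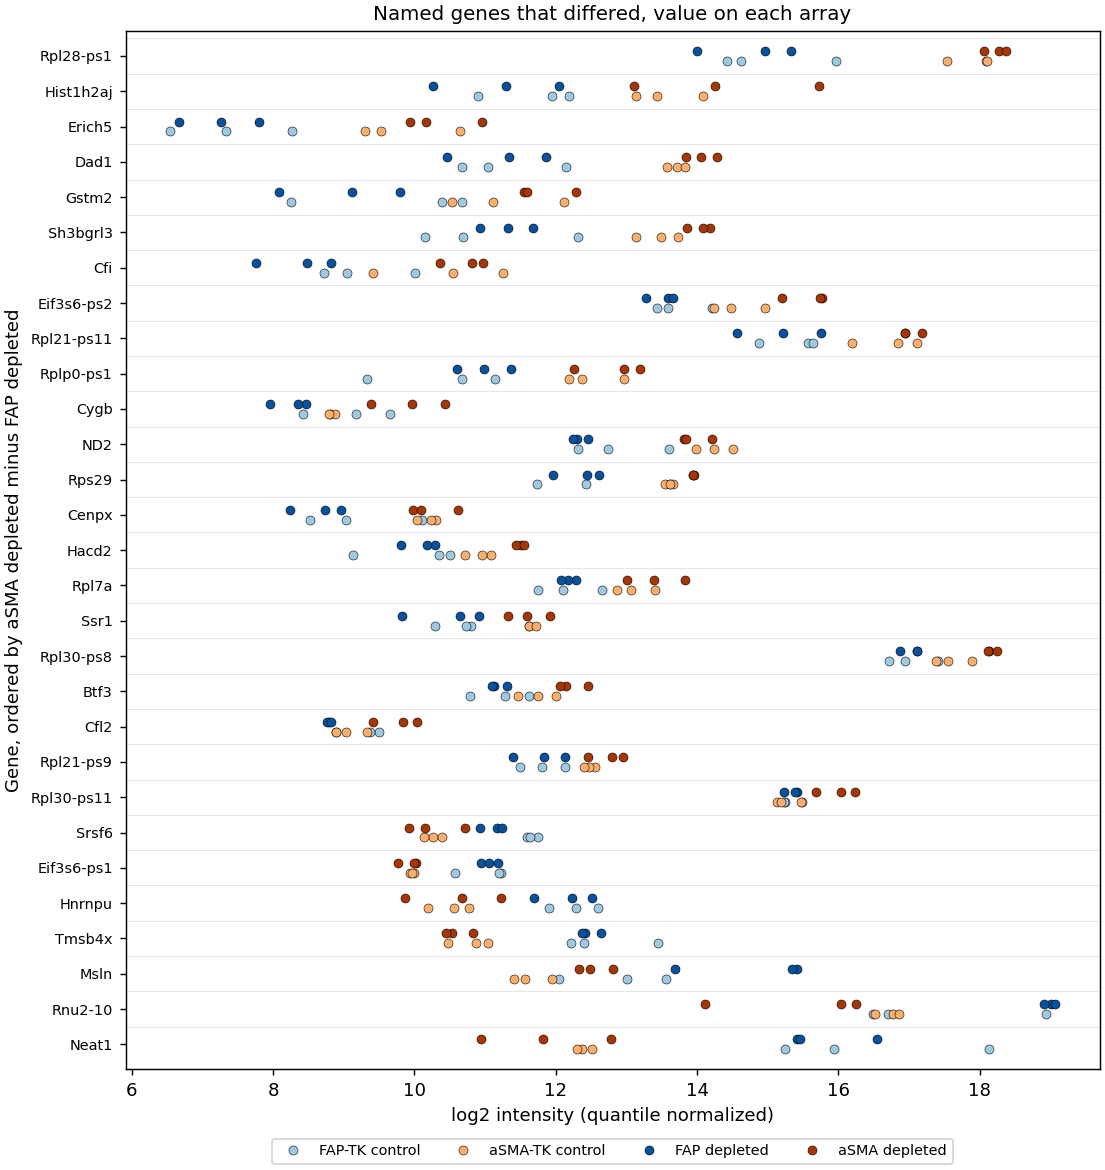
Quantile-normalized log2 intensity (x axis) on each of the 12 arrays for the 29 genes that met the naming conditions, ordered by the depleted difference; for each gene the upper row holds the depleted tumours and the lower row the controls. Rpl28-ps1, Dad1, Neat1 and Tmsb4x are apart in both rows, while for Cygb, Cfl2 and Rpl30-ps11 the control rows overlap.

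A few called genes had no difference in the same direction between the controls. Cygb, cytoglobin, a globin known in fibroblasts and stellate cells, measured 8.46, 7.96 and 8.35 in the FAP depleted tumours, none above background, against 10.43, 9.39 and 9.96 in those labelled aSMA depleted. The difference was 1.67 ± 0.32 (limma adjusted p = 0.0246; at least 0.20 against the background limit) and the control difference -0.26. Cfl2, the muscle form of the actin-severing protein cofilin, measured 8.79, 8.76 and 8.82 against 10.04, 9.85 and 9.41 (0.98 ± 0.20, adjusted p = 0.0283; at least 0.04; controls -0.17). Rpl30-ps11 differed by 0.64, with -0.06 in controls. These 3 were named for a small unadjusted p in the difference of differences, so those p-values add nothing to them, and none passed after adjustment (limma adjusted p = 0.829 for each).

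Calls depended on single arrays. Over 12 fits that each dropped a different array, 263 of the 1562 genes stayed called throughout, and 20 of these were above background on average, 9 higher and 11 lower. Of the genes described above, Rpl28-ps1, Dad1, Eif3s6-ps2, Rpl30-ps8, Eif3s6-ps1, Tmsb4x, Tpm1 and Tpm3 stayed called in all 12 of these fits. Erich5 lost its call once, without FAP depleted replicate 1 (adjusted p = 0.0513). Neat1 and Sh3bgrl3 lost theirs without FAP depleted replicates 1 or 2 or aSMA depleted replicate 3, with adjusted p up to 0.0604 and 0.0549. Msln lost its call without FAP depleted replicates 1 or 3 or any array labelled aSMA depleted (differences from -2.83 to -1.97, adjusted p up to 0.1002). Rnu2-10, Cygb, Cfl2, Cfi, Hist1h2aj, Gstm2, Hnrnpu and Srsf6 each lost their call on leaving out at least 4 different arrays, and their adjusted p reached 0.0739, 0.0723, 0.0825, 0.0862, 0.0913, 0.1325, 0.109 and 0.103. Rps29, Ssr1, Cenpx and Rplp0-ps1 kept their call in 2 of the 12 fits, Rpl30-ps11 in 3, Hacd2 in 4, Btf3 in 6, Rpl7a in 7, Rpl21-ps11 in 8 and ND2 in 9. The sign of all of these was kept in every such fit.

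Fibroblast genes were measured higher as lists in the tumours labelled aSMA depleted, with almost no single member called, and the level of FAP depleted replicate 2 set much of the distance. All 13 measured members of the pan-fibroblast list had a difference above 0, against 55.2% of all genes tested, and 7 had an unadjusted p under 0.05 (13.5% of all genes in that direction), but 0 passed limma's adjusted threshold. The median was 1.57 beside 0.04 over all genes, and -0.19 in the controls. The mean over the list was 9.29, 7.11 and 9.40 in the FAP depleted tumours against 9.47, 9.96 and 10.56 in those labelled aSMA depleted, so FAP depleted replicates 1 and 3 lay just under the lowest of the other group. Without FAP depleted replicate 2, 9 of 13 members were higher, the median was 0.88 and 1 had an unadjusted p under 0.05. On the values as deposited 11 of 13 were higher, beside 4150 of all 30142 genes. The same base applies to the counts as deposited given for the other lists, so a low count there is not by itself a reversal.

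Dcn, decorin, a proteoglycan that binds collagen fibrils, measured 10.80, 6.95 and 9.81 in the FAP depleted tumours against 13.14, 13.06 and 11.29 in those labelled aSMA depleted. The groups did not overlap, and the difference of 3.31 ± 1.15 did not pass (limma adjusted p = 0.116; controls -0.76). Vim, vimentin, the intermediate filament of mesenchymal cells and a member of the epithelial-mesenchymal transition list (7 of 9 higher, 0 called), measured 12.10, 9.31 and 12.49 against 13.04, 13.39 and 13.77 (2.10 ± 0.85, adjusted p = 0.166; controls -0.66). Spon1, a secreted matrix protein, differed by 1.57 (adjusted p = 0.0719; controls -0.28).

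The other stromal lists also moved with that array. At an unadjusted p under 0.05 and higher stood 2 myofibroblastic, 3 interstitial matrix, 2 basement membrane, 5 pericyte, 1 endothelial and 3 hedgehog members, beside 13.5% of all genes. The myofibroblastic, interstitial matrix, basement membrane and endothelial counts are near or below that share. On the values as deposited, where all genes shifted down, 11 of 16 myofibroblastic, 13 of 23 interstitial matrix, 4 of 20 basement membrane, 5 of 10 pericyte, 9 of 15 endothelial and 2 of 9 hedgehog genes were higher. Of 16 myofibroblastic genes, 13 were higher and 0 called (median 0.80, and 0.38 without FAP depleted replicate 2; controls -0.40). Cdh11, a fibroblast cadherin, had the smallest p among these next to the integrin Itga11 (1.65 and 0.79; limma adjusted p = 0.113 and 0.0918; controls -0.61 and 0.16). Of 23 interstitial matrix genes, 22 were higher and 0 called, with a median of 0.68 that turned to -0.18, with 9 of 23 higher, without FAP depleted replicate 2; the control median was -0.36. Col1a1, the main chain of type I collagen and chosen after its values were seen, measured 13.74, 11.62 and 15.10 against 12.01, 13.67 and 15.53. Its difference of 0.25 ± 0.99 (controls -0.66) was -0.68 once FAP depleted replicate 2 was dropped and -0.65 once aSMA depleted replicate 3 was. Bgn, biglycan, likewise chosen afterwards, measured 15.24, 11.60 and 16.43 against 16.23, 16.00 and 16.41, so that 1 array held most of the difference of 1.79 (controls -0.98). Of 20 basement membrane genes 11 were higher (median 0.27), and 7 without FAP depleted replicate 2 (median -0.20), with 0 called and Lama4, a laminin chain, at 0.89 (adjusted p = 0.0620; controls 0.35).

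Of 17 inflammatory fibroblast genes measured, 14 were higher (12 as deposited) and 1 was called, a share near the 5.18% of all genes, with a median of 1.02 (0.745 without FAP depleted replicate 2; controls -0.01). Cxcl12, the chemokine that binds CXCR4 and is made by stromal cells, measured 4.56, 4.47 and 4.91 in the FAP depleted tumours against 6.15, 6.36 and 5.49 in those labelled aSMA depleted. The groups were apart (1.35 ± 0.26, limma adjusted p = 0.0253; controls -0.01), yet no value was above background, and the call was lost without FAP depleted replicates 1 or 2 or aSMA depleted replicates 1 or 2 (adjusted p up to 0.0813). Tgfbr3, the betaglycan co-receptor for TGF-beta, differed by 1.44 (adjusted p = 0.0287; controls -0.34) and Smad2, which carries the TGF-beta signal to the nucleus, by -0.59 (adjusted p = 0.0395; controls -0.37), both from values not above background. The TGF-beta list as a whole had 10 of 16 higher, 1 called in each direction (beside 5.18% of all genes called), and a median of 0.30. Without FAP depleted replicate 2, 5 of 16 were higher and the median was -0.26, and 5 of 16 were higher as deposited. The calls for Tgfbr3 and Smad2 were kept in 7 and 2 of the 12 fits that each dropped an array (adjusted p up to 0.0728 and 0.121). Of 9 hedgehog pathway genes 8 were higher and 0 called (median 0.36, and 0.10 without FAP depleted replicate 2), with the receptor Ptch1 at 1.09 (adjusted p = 0.119; controls -0.66).

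Of 15 smooth muscle genes 14 were higher and Tpm1 alone was lower (median 0.46, controls -0.13). Without FAP depleted replicate 2, 13 were higher and the median was 0.16, and on the values as deposited 5 of 15 were higher. The calls were Mylk upward and Tpm1 downward, beside 5.18% of all genes called. Mylk, the kinase that activates myosin, measured 5.79, 4.89 and 5.45 against 6.55, 6.18 and 6.40, below background throughout (1.00 ± 0.24, limma adjusted p = 0.0442; controls 0.12). Its call was lost on leaving out any array but FAP-TK control replicate 2. Of 10 pericyte genes 9 were higher and 0 called (median 0.82, and 0.38 without FAP depleted replicate 2), with the potassium channel subunit Abcc9 at 1.35 (adjusted p = 0.105; controls 0.06). Of 15 endothelial genes 13 were higher and 0 called (median 0.69, and 0.31 without FAP depleted replicate 2; controls 0.51), and none was above background on average.

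**Figure D4:**
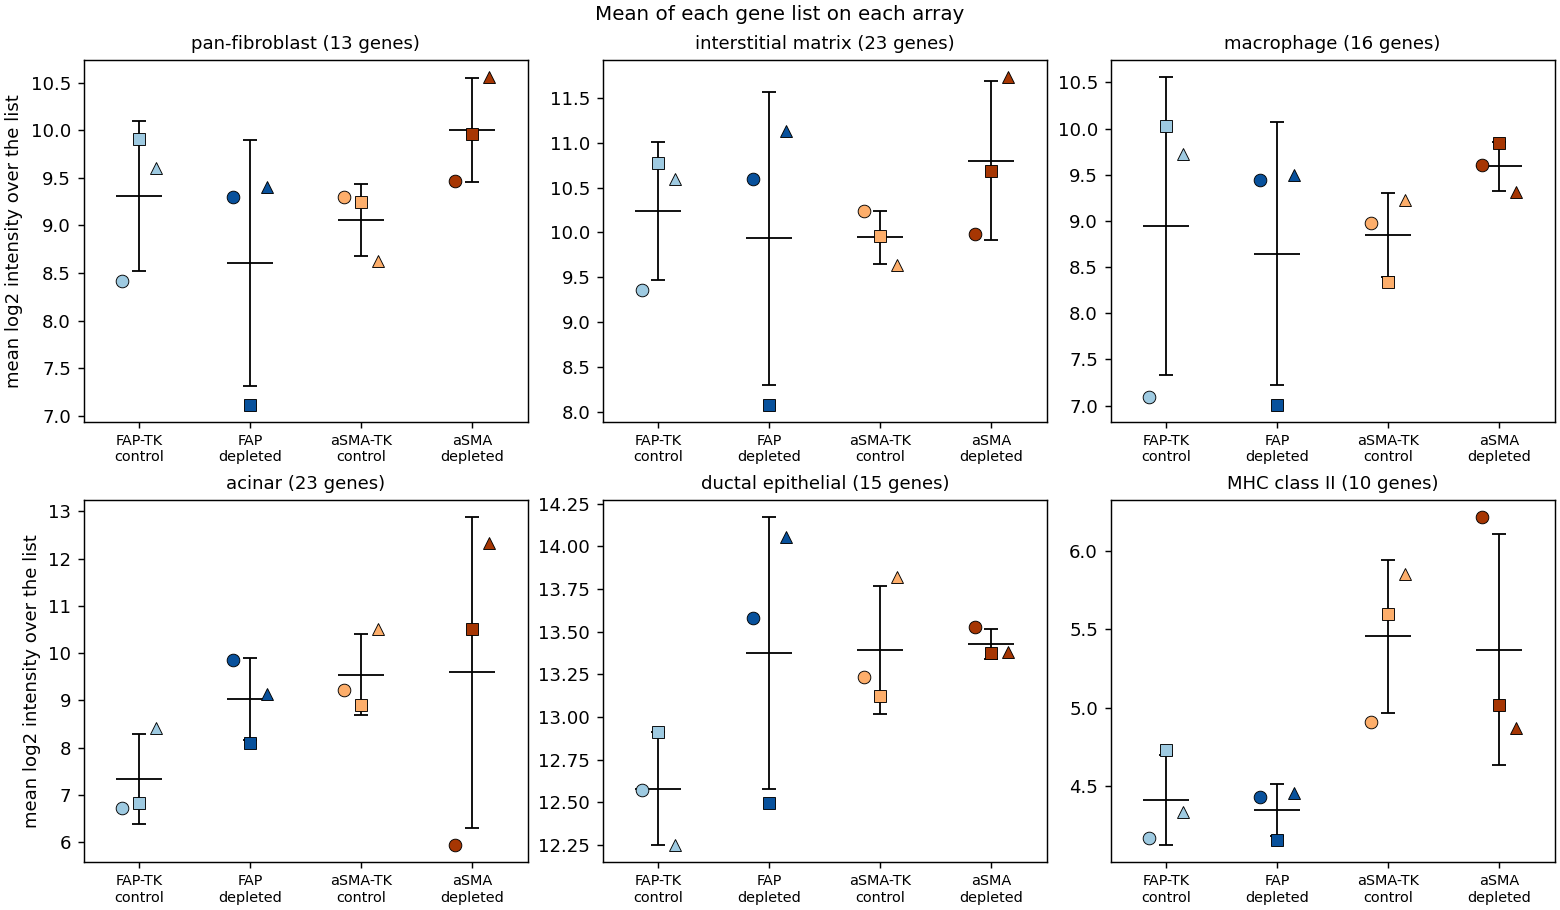
Mean log2 intensity over the measured members of 6 gene lists on each array, by group; symbols are replicates 1 to 3, and the bar with whiskers is the mean ± SD of 3 tumours. FAP depleted replicate 2 is lowest in the pan-fibroblast, interstitial matrix and macrophage lists, and aSMA depleted replicate 1 is lowest in the acinar list.

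The epithelial lists held no called member. Their ductal and acinar counts at an unadjusted p under 0.05 are near or below the 13.5% of all genes higher there. Of 15 ductal genes 8 were higher and 7 lower (median 0.02, and -0.41 with 4 higher without FAP depleted replicate 2; controls 0.95), with 0 called (1 higher at an unadjusted p under 0.05) and Sox9, a ductal progenitor factor, at 1.62 (limma adjusted p = 0.123; controls 1.45). Acinar genes, which encode the digestive enzymes, had 16 of 23 higher (10 as deposited) and 0 called, 3 at an unadjusted p under 0.05 (median 0.32, and -0.045 without FAP depleted replicate 2; controls 2.15). Their mean was 9.85, 8.11 and 9.14 in the FAP depleted tumours against 5.93, 10.51 and 12.33 in those labelled aSMA depleted, so both the lowest and the highest values belonged to the latter. Ctrb1, a chymotrypsinogen chosen after its values were seen, measured 12.62 in aSMA depleted replicate 1 and 19.87 in each of replicates 2 and 3, against 19.46, 16.53 and 19.58. The values of 19.87 are the top of the scale on those 2 arrays, shared with other genes, as are its values on all 3 aSMA-TK control arrays (19.86 to 19.87), so no difference is read from it. The gastric mucin Muc5ac, chosen in the same way, stood at 7.84 in the same tumour against 14.28 and 17.02 in the other members of its group, and its difference of -1.997 (controls 2.46) was 0.61 without it. The ductal keratin Krt19, also chosen afterwards, was 16.54 there, against 17.54 and 17.81 (difference -0.50, controls 1.13).

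Among gastric and mucosal secretory genes, 7 were higher and 7 lower, and 0 were called. At an unadjusted p under 0.05 and higher stood 3, beside 13.5% of all genes. Pgc, the gastric zymogen progastricsin, measured 5.71, 4.41 and 4.86 in the FAP depleted tumours against 11.05, 13.17 and 6.53 in those labelled aSMA depleted. The FAP depleted values were not above background, and 2 of the 3 higher values were. The measured difference of 5.26 ± 1.31, at least 0.52 against the background limit, did not pass (limma adjusted p = 0.0505; controls 0.11). Serpina3n, an acute-phase protease inhibitor, measured 13.16, 7.59 and 13.87 against 15.70, 15.83 and 15.02 (3.98 ± 1.38, adjusted p = 0.117; controls -1.93). The groups did not overlap, and the lowest value was again that of FAP depleted replicate 2. Orm1, an acute-phase serum protein, was called at 0.63 (adjusted p = 0.0356; controls 0.52) from values below background, a call kept in 4 of the 12 fits that each dropped an array. It was the 1 called of 12 measured on its list, beside 5.18% of all genes called.

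Islet genes were mostly higher, in controls as well. Of 14 measured, 13 were higher (median 0.92, controls 0.66), and Ins2 and Pcsk1 were called, beside 5.18% of all genes called. Ins2, one of the insulin genes, measured 5.88, 4.99 and 5.52 against 9.46, 7.09 and 7.60, with 1 value above background (2.59 ± 0.54, limma adjusted p = 0.0302; controls 1.91, unadjusted p = 0.00561). Its call was lost on leaving out any FAP depleted array or aSMA depleted replicate 3 (adjusted p up to 0.0901). Pcsk1, the convertase that processes prohormones, differed by 0.54 ± 0.09 (adjusted p = 0.0134) and by 0.67 in controls (adjusted p = 0.00644), and its call held with every array left out in turn, although all its values lay below background.

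Immune genes lay higher in the tumours labelled aSMA depleted, mostly at intensities below background. Of 16 macrophage genes 14 were higher (9 as deposited), beside 55.2% of all genes, and 0 were called. At an unadjusted p under 0.05 and higher stood 2, a count near the 13.5% of all genes. The median was 0.77, and 0.11 without FAP depleted replicate 2 (controls 0.23). C1qb, a chain of complement C1q made by macrophages, measured 10.18, 6.80 and 10.88 against 12.88, 12.31 and 12.998 (3.45 ± 1.30, limma adjusted p = 0.141; controls 1.03). Marco, a macrophage scavenger receptor, differed by 2.86 (adjusted p = 0.105; controls 0.74). Lyz2, lysozyme of macrophages and neutrophils and chosen after its values were seen, measured 17.01, 11.69 and 16.06 against 17.45, 17.30 and 16.73, and again replicate 2 was the low FAP depleted value (controls 0.85). All 11 neutrophil genes were higher (6 of 11 as deposited), and Mmp9, a matrix metalloproteinase stored by neutrophils, was called at 2.48 ± 0.55 (adjusted p = 0.0356; controls 0.60) from 4.98, 4.24 and 4.62 against 5.89, 8.22 and 7.18, all below background. Its call was lost without any 1 of 8 arrays (adjusted p up to 0.102). Mmp9 was the 1 neutrophil gene called of 11, beside 5.18% of all genes called.

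All 10 T cell genes, 6 of 7 regulatory T cell genes and all 11 B and plasma cell genes had differences above 0, beside 55.2% of all genes. Their medians were 0.35, 0.27 and 0.31. The list means were highest in aSMA depleted replicate 1 and near or within the FAP depleted range in replicate 3. For T cell genes they were 3.89, 3.85 and 3.92 in the FAP depleted tumours against 4.87, 4.26 and 3.93 in the other group. For regulatory T cell genes they were 4.41, 4.48 and 4.46 against 4.93, 4.75 and 4.48. For B and plasma cell genes they were 5.67, 4.94 and 5.19 against 6.71, 6.01 and 5.39, with overlap. On the values as deposited the counts above 0 were 3, 3 and 4, beside 4150 of all 30142 genes. Il2ra, the high-affinity chain of the IL-2 receptor (0.56, limma adjusted p = 0.0411; controls 0.17), Icos, a costimulatory receptor (0.70, adjusted p = 0.0442; controls 0.07), and Cd79a, a chain of the B cell receptor (0.97, adjusted p = 0.0314; controls 0.84, adjusted p = 0.041), were called. Cd4, the helper T cell co-receptor, differed by 1.59 (adjusted p = 0.0950; controls 0.24), with its 3 higher values at 6.62, 4.78 and 4.37. None of the lymphocyte members named here was above background on any array. All 10 MHC class II genes were higher (6 of 10 as deposited, median 0.85, controls 0.80). Their mean was 4.43, 4.16 and 4.46 in the FAP depleted tumours against 6.22, 5.02 and 4.87, with aSMA depleted replicate 1 the highest. H2-Eb1, a class II beta chain, measured 3.87, 3.90 and 4.29 against 8.55, 6.06 and 5.89 (2.81 ± 0.57, adjusted p = 0.0281). The controls differed likewise (2.25, adjusted p = 0.0445), and its call was lost without any FAP depleted array (adjusted p up to 0.0857). Calls for Il2ra and Icos were lost on leaving out 9 and 10 of the arrays and that for Cd79a on leaving out 4. Called were 0 of 10 T cell, 2 of 7 regulatory T cell, 1 of 11 B and plasma cell and 1 of 10 MHC class II genes. Over all genes 5.18% were called, and 5.47% of those not above background.

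Interferon and proliferation genes ran with the controls. Of 18 interferon response genes 17 were higher (3 of 18 as deposited) and 0 called, with a median of 0.38 against 0.79 in controls. At an unadjusted p under 0.05 and higher stood 4 of them, beside 13.5% of all genes. Of 10 interferon-gamma GTPase genes all were higher (4 of 10 as deposited, median 0.64, controls 1.16). Ifit1, an interferon-induced RNA-binding protein, differed by 1.14 (limma adjusted p = 0.0636) and by 1.90 in controls (adjusted p = 0.0122). All 18 cell cycle genes were higher (8 of 18 as deposited) and 0 called. At an unadjusted p under 0.05 stood 3, a count near the 13.5% of all genes. Their median was 0.64, or 0.37 without FAP depleted replicate 2, against 0.86 in controls. Mcm6, of the replicative helicase, differed by 0.95 (adjusted p = 0.0907) and by 1.86 in controls (adjusted p = 0.0116).

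Hypoxia and immediate early genes tended the other way without a call. Of 15 hypoxia and glycolysis genes 10 were lower (median -0.17, and -0.26 without FAP depleted replicate 2). Their mean was 9.23, 9.18 and 10.68 in the FAP depleted tumours against 9.50, 10.03 and 9.17 in those labelled aSMA depleted. FAP depleted replicate 3 alone lay above the other group. The glycolytic enzyme Pkm differed by -1.10, with overlap between the groups (limma adjusted p = 0.124, controls -1.36). Of 10 immediate early genes 7 were lower (median -0.40), all 10 without FAP depleted replicate 2 (median -0.85), and FAP depleted replicate 3 held the highest mean over the list, 9.12 against 6.09 to 7.45 on the other 5 arrays. Of 18 p53 target genes 9 were higher and 9 lower (median 0.02, and -0.17 with median-centred arrays), with the stress-induced Btg2 at -1.10, at least 0.54 lower against the background limit (adjusted p = 0.0617; controls -0.34). Il11, an IL-6 family cytokine, was called lower at -0.43 (adjusted p = 0.0495; controls -0.37) from values below background, and kept its call in 1 of the 12 fits that each dropped an array (adjusted p up to 0.145). Oxidative phosphorylation genes split 12 to 8, with 0 called. Of 12 skeletal muscle genes Ckm was called higher (0.45) and Tnnc2 (-0.35), Tnni2 (-1.16) and Pvalb (-0.63) lower, and Sox10, of the Schwann and nerve list, was called lower (-0.34), beside 5.18% of all genes called, all from values below background with the same sign in controls (0.27, -0.24, -0.81, -0.28 and -0.13). Ckm was -0.12 on the values as deposited. Sox10 lost its call in all 12 fits that each dropped an array, Ckm, Tnnc2 and Pvalb kept theirs in 1 of them and Tnni2 in 8.

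Small structural RNAs were the classes most often lower among genes above background, an observation made after the values were seen and given as a description. Of 280 small nuclear RNAs of the spliceosome and related particles, 273 were lower (median -1.88, controls -0.34), and 21 were called, all lower (7.5%, beside 2.92% of all genes above background). Of 63 small nucleolar RNAs, which guide modification of ribosomal RNA, 46 were lower (median -0.70, controls 0.24) and 9 were called, all lower. Distinct sets of values were not counted in the small nuclear or small nucleolar class, so these counts need not be of independent genes. Snora73a, one of the called small nucleolar RNAs, measured 13.26, 15.67 and 12.82 in the FAP depleted tumours against 8.79, 9.20 and 7.91 in those labelled aSMA depleted (-5.29 ± 1.18, limma adjusted p = 0.0364; controls -2.67, adjusted p = 0.172). Snora73b, its close relative, differed by -4.58 and Snord14e by -3.87 (adjusted p = 0.0498 and 0.0365; controls -2.15 and -0.75). All 3 lost their call on leaving out single arrays (adjusted p up to 0.1085, 0.145 and 0.107).

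Of 57 ribosomal RNA genes 55 were lower, with a median of -4.41, yet 0 were called. The controls ran the other way, with a median of 1.93. The class median was 17.65, 18.48 and 14.72 in the FAP depleted tumours against 11.42, 13.56 and 12.65 in those labelled aSMA depleted, while it spanned 13.50 to 17.48 in the FAP-TK and 15.38 to 19.09 in the aSMA-TK controls. The ranges within both control groups thus exceeded the distance between them. Of the 57, 46 carried names of the 5S family, and only 18 distinct sets of values occurred among them, so many are copies measured by the same probes. Among 904 pseudogenes above background, 24 were called higher and 12 lower (3.98% in all). Among 1944 protein-coding genes it was 13 higher and 16 lower (1.49% in all), beside 2.92% of all genes above background. The microRNA entries Mir466h and Mir466m were called higher (1.21 and 1.46, limma adjusted p = 0.0171 and 0.0195; controls 0.58 and 0.60).

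**Figure D5:**
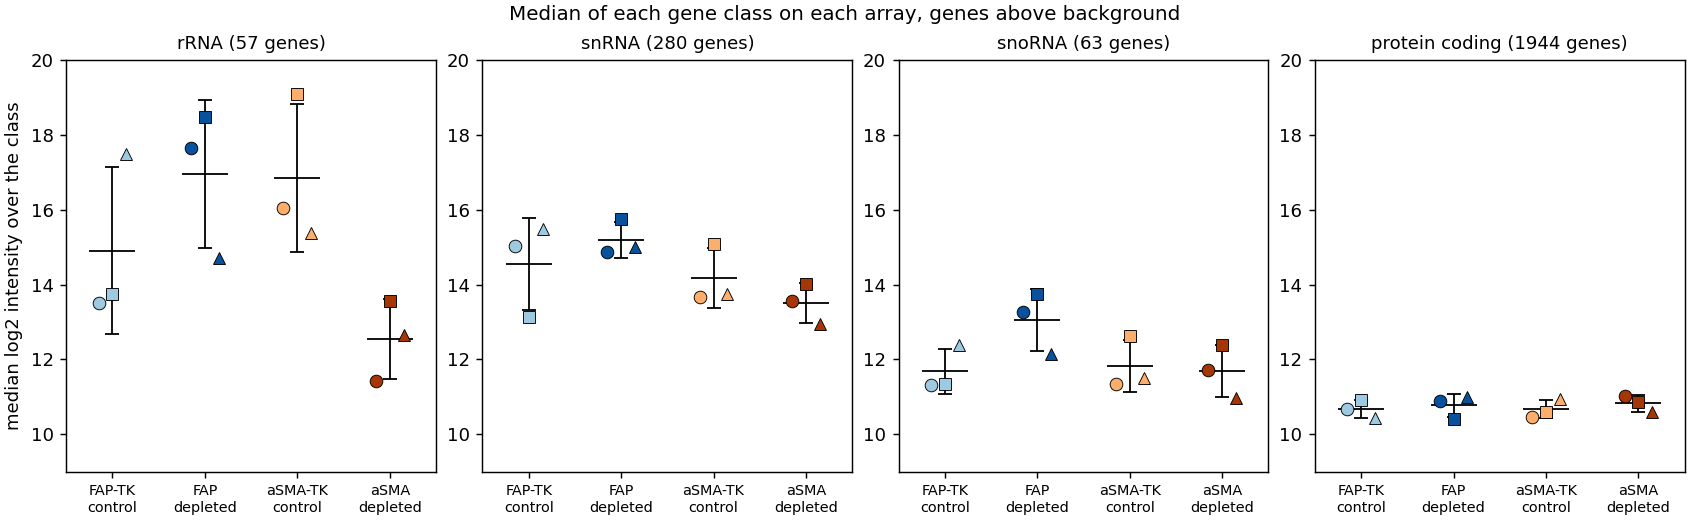
Median log2 intensity on each array over the ribosomal, small nuclear and small nucleolar RNA genes and the protein-coding genes that were above background on average, by group; symbols are replicates 1 to 3, and the bar with whiskers is the mean ± SD of 3 tumours. The y axis does not start at 0, and the protein-coding medians lie between 10.42 and 11.02 on all 12 arrays while the ribosomal RNA medians range from 11.42 to 19.09.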

How the data were processed

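RNA of 12 tumours was hybridised to 1 array each. The deposited values were taken as log2 intensities from their range (1.64 to 19.93). This is wider than a 16-bit scanner records, so no folds are given. How background was corrected and probes summarized is not given in the sources used here; limma is named without a version in the submitters' processing notes. Per the labels' protocols the labelling kit was one for Illumina arrays, while the probe set names are those of an Affymetrix array.

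Of 72688 probe sets, 6732 controls were left out and the rest quantile normalized. The platform annotation gave 30604 probe sets 1 symbol, 2146 several and 33206 none; 827 symbols were updated through RefSeq (GRCm38.p6). The brightest probe set per gene was kept. Group means were fitted over 12 arrays in limma 3.58.1 (R 4.3.3, statmod 1.5.0; empirical Bayes), two-sided, with Benjamini-Hochberg adjustment over 30142 genes. On simulated data of this size, checked first, the script's median estimates lay near the changes put in. The simulated noise was independent for each gene and held no differences between arrays, so it does not test the calls made here. Precision is limited by the small number of arrays.

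The members and lists were chosen with earlier results of these data known. Named were Fap and Acta2; per direction up to 10 called genes of largest difference whose groups did not overlap and whose higher group was above background on 3 arrays, without clone, predicted, microRNA, small nucleolar and receptor-segment names; up to 5 such genes of smallest p in the difference of differences; and from each of 40 lists (495 of 568 entries measured) the 2 of smallest p and any called. With those names left out, 22 called genes higher and 7 lower met the conditions on overlap and background. The background limit was lower on the arrays labelled aSMA depleted, so higher genes could meet them more easily. Genes named after their values were seen are marked as such, and Snora73a, Snora73b, Snord14e, Mir466h and Mir466m are among them. Alternatives were other scalings, filters, covariates, weights, variance models and tests, and leaving out each array. The counts and medians of lists without FAP depleted replicate 2 were added after seeing the data. No set test was run.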

Additional observations from a re-analysis of the deposited data

How the results depend on the processing

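The count of genes called between the depleted groups (1562) moved to 14287 on the values as deposited, 3391 with median centring, 22 with genes not above background left out (0 between the controls by limma, smallest adjusted p 0.0527), 4606 with every probe set, 1 with only the groups compared, 4502 with array weights, 634 without the 3 arrays of lowest control-probe separation, 795 with sex as a covariate, 3501 at an adjusted p under 0.1, and 0 with the unmoderated test. It stayed within 1.5 times with an offset of 50 (1143), trended and robust variances (2200) and control-probe separation as a covariate (1168, of which 41.9% were higher). The control count (2350) moved in the same settings to 12443, 5769, 0, 8599, 212, 6658, 357, 5104 and 63, and also to 1536 with the offset and 1012 with the separation covariate; with sex it was 1877. With 1 array left out, the depleted count ran from 374 (without FAP depleted replicate 1) to 1874 and the control count from 508 to 3130. The depleted count was 481 and 496 without FAP depleted replicates 2 and 3, 960, 513 and 489 without aSMA depleted replicates 1, 2 and 3, and 1039 without FAP-TK control replicate 3. The difference of differences called 0 genes in every setting it could be fitted in, except 1 gene without aSMA-TK control replicate 1, so its range was 0 to 1; with only the groups compared and with the unmoderated test it has no value. Fap ran from 0.39 to 1.04 and Acta2 from 1.40 to 4.17 with 1 array left out.

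Signs turned on the values as deposited for Birc5 (-0.18), Camp (-0.021), Cd3g (-0.093), Ckm (-0.12), Cspg4 (-0.045), Gli3 (-0.10), Gpm6a (-0.0375), Pax5 (-0.085), Pi16 (-0.13), Retn (-0.10) and Col1a1 (-0.28), and for Krt19 with median centring (0.25). Of these, Ckm alone was called; the control differences of Birc5, Camp, Cd3g, Cspg4, Gli3, Gpm6a, Pax5, Pi16 and Retn were 0.21, 0.62, 0.33, 0.49, -0.19, 0.39, 0.14, 0.16 and 0.084. Col1a1 also turned with the separation covariate (-0.42), without the 3 arrays of lowest separation (-0.68) and with sex (-0.071). With single arrays left out, Col1a1 ran from -0.68 to 1.11, Ctrb1 from -2.27 to 1.35 and Muc5ac from -3.98 to 0.61; Ctrb1 lies at the top of the scale on 5 arrays. The cause was not tested. Of 53 called genes named, 10 to 50 stayed called with 1 array left out. No paired analysis was possible because the labels give each mouse its own number. Genes not above background (26719 of 30142) have intensities that limit what their differences can show.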
